A study of Mus musculus with 70 samples.

Results

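Lung metastases of the same mouse renal carcinoma line were compared by the way the cells had reached the lung. The 10 samples, of 70 in the series, were the 6 labelled as tail samples of passage 5 (replicates 1 to 6) and the 4 labelled as lung samples of passage 5 (replicates 2, 3, 5 and 6). All samples carried the same background: RENCA cells, a renal adenocarcinoma line of BALB/c mice, made to express GFP with a lentiviral vector and passaged in wild-type female BALB/c mice that were 6 weeks old at injection. T-LM cells came from metastases that had grown in the lung when RENCA cells were given by the tail vein, with no kidney tumour, and K-LM cells from lung metastases of tumours implanted under the capsule of the left kidney. Each passage re-injected recovered cells by the same route, and passage 5 (P5) was the fifth round. Per the study's methods, digested lung tissue was cultured for around 2 weeks, until no GFP-negative cell was detected, so the RNA came from cultured lines and not from tissue. The labels number the samples but do not tie them to single mice, so p-values measure the spread between these samples. In such bulk RNA, fewer cells of a type and less RNA per cell cannot be told apart.

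A cell injected into the tail vein is carried straight to the capillaries of the lung, whereas a cell implanted in the kidney has to grow in the organ, invade vessels and leave before it can settle in the lung. The comparison therefore asks how lines that had gone through both the kidney and the lung differed from lines that had met only the blood and the lung.

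Expression was measured with 1-colour arrays labelled with Cy5. A level is a probe's log2 signal relative to its array, with the array's 75th percentile of log2 signal subtracted, and a difference is the T-LM mean minus the K-LM mean on that log2 scale, so a negative difference is higher in K-LM. A probe or gene is said to be called when limma gave an adjusted p of 0.01 or less. Between 25.3% and 33.1% of the probes of an array were well above background.

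Some samples stood apart or lay close together. T-LM replicate 1 was the farthest from its group, at 75.8 on the second principal component against -47.9 to 23.9 in the other T-LM samples. Its summed level of fibroblast markers was 5.53, against 0.71 to 1.69 in the other T-LM samples and 0.77 to 2.04 in K-LM. K-LM replicates 2 and 5 differed from each other by a spread of 0.16 log2 units over bright probes, whereas 5 samples of other groups that were hybridised again on another slide differed by 0.252 to 0.32. T-LM replicates 4 and 6 differed by 0.235, also less than any repeat array, K-LM 3 and 6 by 0.26 and T-LM 3 and 5 by 0.298. Nothing in the labels says that any of these are the same sample, and they were kept as labelled, with averaged pairs as an alternative. The mean level of 18 long mRNAs minus that of 76 ribosomal protein mRNAs, a balance that can move with RNA quality and labelling, was -7.52 ± 0.51 (SD, n = 6) in T-LM and -8.29 ± 0.42 (SD, n = 4) in K-LM. It differed by 0.77 (exact 2-sided permutation test over 210 assignments, p = 0.0429). That p was over 0.05 in 8 of the 10 comparisons that left out 1 sample, with differences of 0.57 (without K-LM replicate 3) to 0.94 (without T-LM replicate 1). Results with this balance as a covariate are given below, and its part in them was not tested beyond that. All 6 T-LM arrays lay at 1 position of their slides, which only K-LM replicate 2 shared, so position and route cannot be told apart for the other 3 K-LM arrays.

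**Figure D1:**
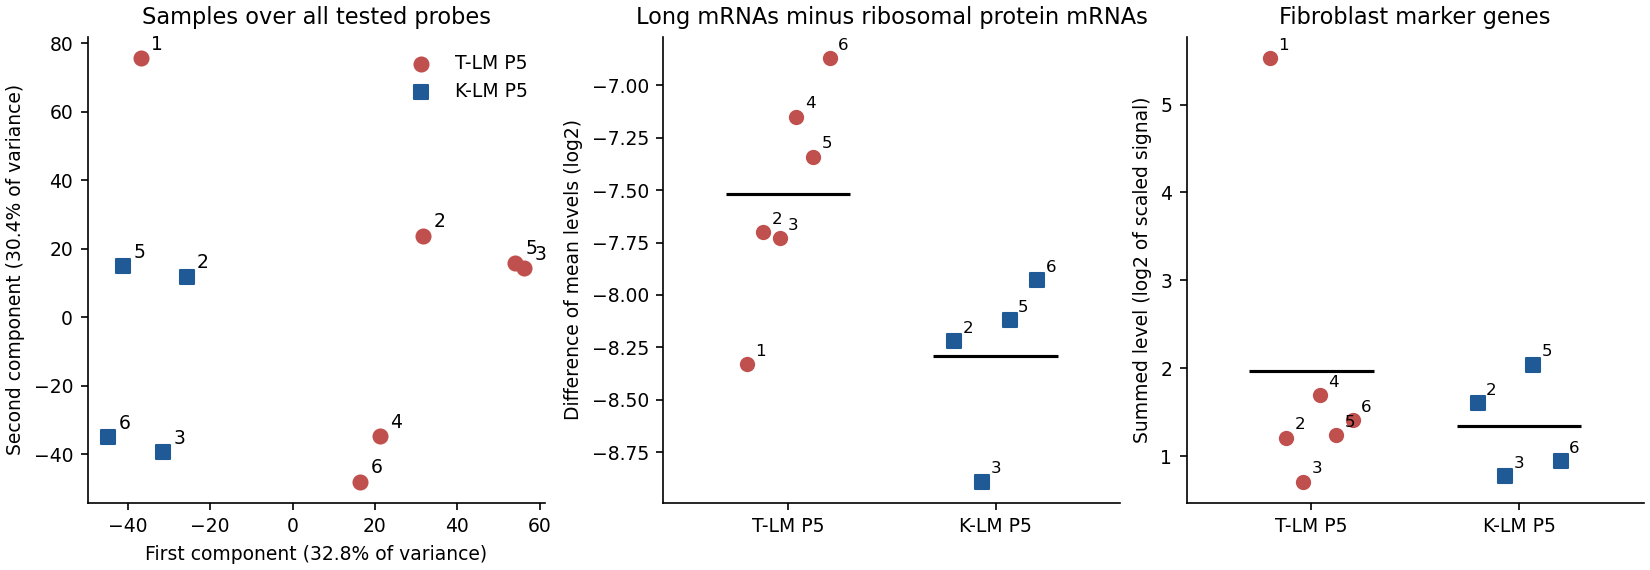
The 10 P5 samples, numbered by replicate, with T-LM as red circles and K-LM as blue squares. The left panel gives the first and second principal components over the tested probes, the middle panel the mean level of long mRNAs minus that of ribosomal protein mRNAs (log2), and the right panel the summed level of fibroblast markers (log2), with lines at the group means. The K-LM samples lie at -44.6 to -25.7 on the first component with T-LM replicate 1 at -36.8, and the other 5 T-LM samples lie at 16.4 to 56.1.

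Part of the epithelial profile was measured in the cultures. Many defining markers of other cells were at background, but most fibroblast markers were not. Of 10 fibroblast markers 8 were above background on at least 2 arrays, and 1 (Dpt) was at background on all 10. Col1a2 was at 4.71 in T-LM replicate 1, at -0.5 to 0.75 in the other T-LM samples and at -1.04 to -0.1 in K-LM. Dcn was at 1.76, -1.88 to -0.75 and 0.02 to 1.31 in the same order. Krt8, Krt18 and Krt19, keratins of simple epithelia, and Pax8, a kidney lineage factor, were above background, whereas Epcam and Cdh1 were at background on all 10 arrays. The surfactant genes Sftpa1, Sftpb, Sftpc and Sftpd, the kidney genes Pax2 and Cdh16, the endothelial genes Pecam1 and Cdh5 and the leukocyte gene Ptprc were also at background on all 10 arrays. Other members of these lists were above background on at least 2 arrays. They were 3 of 10 endothelial, 2 of 10 lymphocyte, 3 of 12 kidney tubule and 1 of 10 lung epithelial markers. The endothelial markers had summed levels of -0.32 to 0.61 in T-LM and -0.74 to -0.3 in K-LM. Of 15 macrophage markers 10 were measured, with summed levels of 1.66 to 2.29 in T-LM and 1.34 to 1.86 in K-LM, and 0 of those 10 were called by limma. C1qa, C1qb, C1qc and Mrc1 were at background throughout. In all marker lists the 1 called gene was S100a8.

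Over all tested probes the lines of the 2 routes differed at P5. T-LM replicate 1 still lay among the K-LM samples on the first principal component, at -36.8 against -44.6 to -25.7. Of the squared distances between samples over all tested probes, 26.9% lay between routes (exact 1-sided permutation test over 210 assignments, p = 0.0143). That test took the 10 samples as separate and was not repeated with the close pairs averaged. Of 18592 probes tested, limma called 498, which was 2.68%, with 248 higher in T-LM and 250 higher in K-LM. Among the 498, 71 were at background in all T-LM samples and 26 in all K-LM samples. Those probes entered the test only through the other route, so their calls and sizes rest partly on background signal. In terms of genes, 341 of 10956 symbols were called, 3.11%, with 172 (1.57%) higher in T-LM and 169 (1.54%) higher in K-LM. The called probes had a median absolute difference of 1.18, and 495 of the 498 did not overlap between the groups, against 13.1% of all tested probes. Differences over 2 log2 units were found for 64 called probes, 20 higher in T-LM and 44 higher in K-LM.

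These counts depended on single samples. Leaving out 1 K-LM sample gave 131, 158, 123 and 110 called probes for replicates 2, 3, 5 and 6, and leaving out T-LM replicate 3, 4 or 5 gave 271, 219 and 178. With K-LM replicates 2 and 5 averaged into 1 sample, 118 probes were called and all 118 were among the 498. With all 4 close pairs averaged, limma called 0 probes, with 2326 at an unadjusted p under 0.05. With slide and array position as blocks 8 probes were called, all higher in T-LM, and without T-LM replicate 1 the count was 1200 and held all 498. Within the slides that carried a sample of each route, the median difference of the called probes in the called direction was 1.06 (T-LM 2 and K-LM 5) and 1.23 (T-LM 3 and K-LM 6), in samples that were themselves part of the comparison. Of 69 genes followed by name below, 56 were called as reported and 31 with K-LM replicates 2 and 5 averaged.

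Among the named genes the largest measured differences were those of Lce1g and Lce1i, genes of the cornified envelope, the crosslinked protein shell of skin keratinocytes. Lce1g was above background in 2 of 6 T-LM and all 4 K-LM samples, and had T-LM levels of -7.49 to -5.36 with a median of -6.74, and K-LM levels of -2.63, -3.00, -2.10 and -2.67 in replicates 2, 3, 5 and 6. Every K-LM sample was above every T-LM sample by over 2 log2 units. The difference was -4.03 ± 0.38 (SE, adjusted p = 0.000459), and its size rests mostly on T-LM signals that were not well above background.

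Lce1i, and Crct1, a further gene of the epidermal differentiation cluster, gave smaller differences of the same sign. Lce1i was above background in 1 of 6 T-LM samples, so that its size has the same limit, and the T-LM levels were -7.49 to -6.10 (median -7.06) and the K-LM levels -3.69, -3.55, -2.96 and -3.54, a difference of -3.48 ± 0.30 (adjusted p = 0.000459). Crct1 was above background in all 10 samples, at -5.29 to -4.55 (median -5.01) in T-LM and at -2.06, -2.61, -1.10 and -2.30 in K-LM, which gave -2.94 ± 0.27 (adjusted p = 0.000459). The groups did not overlap in either gene. Lce1c was not well above background in any T-LM sample and was at least 2.59-fold higher in K-LM (adjusted p = 9.57e-05). Sprr1b, a small proline-rich envelope precursor, was likewise at background in T-LM and at least 2.21-fold higher in K-LM (adjusted p = 0.00798).

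S100a8, a subunit of the calcium-binding protein calprotectin of neutrophils and stressed epithelia, was measured in every sample. Its T-LM levels ran from -4.96 to -3.70 with a median of -4.10, and its K-LM levels were -1.86, -1.24, -0.94 and -1.56. Every K-LM sample was higher, with a difference of -2.79 ± 0.27 (6.93-fold, adjusted p = 0.000459). The partner subunit S100a9 and the neutrophil genes Retnlg, Cxcr2 and Mpo were at background on all 10 arrays. Of 6 neutrophil markers on the array, 2 were above background on at least 2 arrays, S100a8 and 1 that was not called. Both had differences on the K-LM side, and their summed level was 0.65 to 1.19 in T-LM and 1.13 to 1.54 in K-LM. The Lce1, Sprr, Crct1 and S100a genes were drawn up as a family after their values were seen, so their count is no independent support. Of 22 tested, 9 were called higher in K-LM, against 1.54% of all tested genes, and 0 higher in T-LM. The median difference was -0.93 against -0.02 over all tested genes. The called Lce1c, Sprr1b, Sprr2j-ps and Lce1f were at background in all T-LM samples and entered the test only through K-LM. Sprr2j-ps and Lce1f did so on 2 K-LM arrays each. Probes of such multi-copy genes can read more than 1 copy.

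Single genes of extracellular proteolysis were also higher in K-LM. Mmp13, collagenase 3, was above background in 3 of 6 T-LM samples and had levels of -7.05 to -4.44 (median -5.74) in T-LM and of -2.84, -3.14, -1.54 and -2.48 in K-LM. The groups were 1.30 log2 units apart at their nearest samples, and the difference was -3.25 ± 0.44 (adjusted p = 0.00251). It was the 1 gene called among 17 tested metalloproteinases, their relatives and inhibitors, whose median was -0.13. Serpinb2, the inhibitor PAI-2 of the plasminogen activators, was at -5.32 to -4.15 (median -4.42) in T-LM and at -1.75, -2.90, -1.77 and -1.28 in K-LM, without overlap and with a difference of -2.66 ± 0.32 (adjusted p = 0.00147).

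Vnn3, a member of the vanin pantetheinase family, differed by -2.86 ± 0.34 (adjusted p = 0.00138). Its K-LM levels lay within -3.82 to -3.34, and its T-LM levels, 2 of 6 above background, within -7.36 to -5.46. Il1f6, which encodes the inflammatory cytokine interleukin-36 alpha, and Klra2, a Ly49 family receptor gene, were at background in all 6 T-LM samples and at least 2.73-fold and 2.57-fold higher in K-LM (adjusted p = 0.000459 and 0.000474). The unnamed transcript 4930550L24Rik differed by -2.61 ± 0.40 (adjusted p = 0.00382), with K-LM levels that spread widely, from -1.92 to 0.13.

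**Figure D2:**
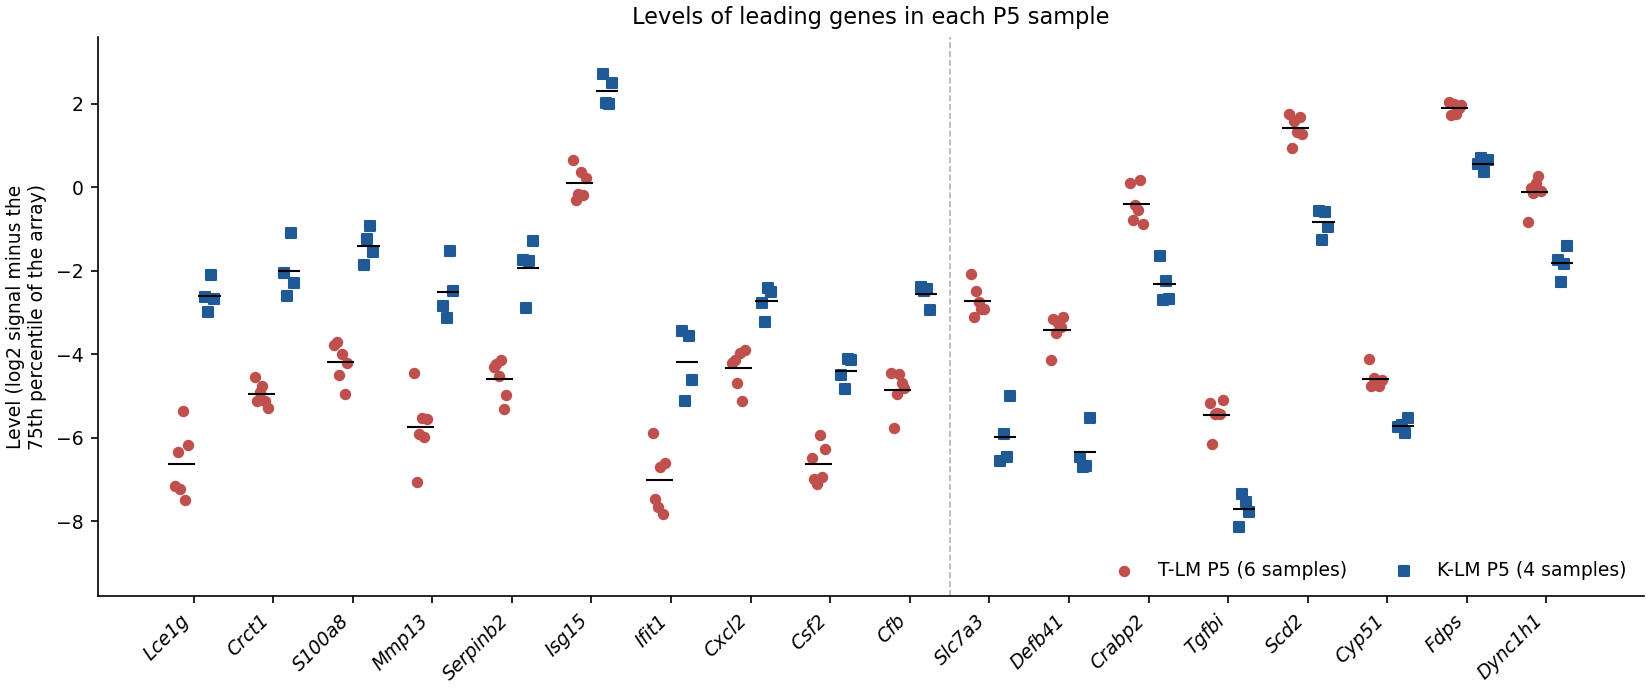
Levels (log2, relative to the 75th percentile of each array) of 18 genes in each P5 sample, 6 T-LM samples as red circles and 4 K-LM samples as blue squares, with black lines at the group means. Genes left of the dashed line were higher in K-LM and genes right of it higher in T-LM, and the groups do not overlap in any of the 18.

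Several interferon-stimulated genes were higher in K-LM. Type I interferon acts on promoter elements made of paired GAAA runs, and the genes it switches on encode antiviral proteins. Of 27 tested genes of this list, 9 were called higher in K-LM, against 1.54% of all tested genes, and 0 higher in T-LM. The median difference was -1.46, against -0.02 over all tested genes. The called genes were Ifit1, Ifit3, Rtp4, Rsad2, Isg15, Gbp3, Cxcl10, Usp18 and Xaf1, and 23 of the 27 were on the K-LM side. With K-LM replicates 2 and 5 averaged, 3 of the 9 calls were made, those of Isg15, Rsad2 and Rtp4. The count was 3, 2 and 3 without K-LM replicate 2, 5 or 6, 3 without T-LM replicate 5 and 7 to 13 without any other sample. With slide and array position as blocks limma called 0 of the list. With the balance of long mRNAs as a covariate 2 were called, and Isg15, Ifit1, Ifit3, Rsad2, Rtp4 and Usp18 had differences of -2.87 to -2.22 that were not called (adjusted p = 0.0101 to 0.0442).

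Isg15, a ubiquitin-like modifier, was above background in every sample. It had T-LM levels of -0.30 to 0.64 (median 0.03) and K-LM levels of 2.71, 2.02, 2.00 and 2.49. All 4 K-LM samples were higher, with a difference of -2.21 ± 0.22 (4.63-fold, adjusted p = 0.000474). Ifit1, which binds viral RNA, was above background in 1 of 6 T-LM samples, at -7.82 to -5.88 (median -7.08), and in all K-LM samples, at -3.45, -5.12, -3.57 and -4.63.

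K-LM replicates 2 and 5 were the highest for Ifit1 and replicate 3 the lowest. The difference was -2.83 ± 0.44 (adjusted p = 0.00398), and the same order was seen for Ifit3 (-2.60 ± 0.44, adjusted p = 0.00637). Rtp4 was above background in every sample, at -3.50 to -2.43 (median -3.13) in T-LM and at 0.08, -1.66, -0.40 and -0.82 in K-LM. It differed by -2.40 ± 0.32 (adjusted p = 0.00228), again with K-LM replicate 3 the lowest of its group.

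Rsad2, the antiviral enzyme viperin, was at background in all T-LM samples and at least 1.82-fold higher in K-LM (adjusted p = 0.0011). Usp18, which removes Isg15 from proteins and damps the pathway, differed by -1.91 ± 0.28 (adjusted p = 0.00357). Ifi27l2b, a relative of the interferon-inducible Ifi27, was at background in T-LM and at least 1.14-fold higher in K-LM (adjusted p = 0.00128). The list was not uniform: Irf1 (0.04), Ddx58 (0.01), Dhx58 (0.11) and Stat2 (0.30) had differences on the T-LM side and were not called, and of 17 tested genes of MHC class I presentation, many of them interferon-responsive, limma called 0, with a median of -0.22. Ifnb1 itself, named after its values were seen, was above background in 0 of 6 T-LM and 2 of 4 K-LM samples, with an adjusted p of 0.00579.

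Promoters of called interferon genes are shown where they held more than 1 match to the element. Those of Rsad2 and Cxcl10 held 1 match each and are not shown. In the 250 bases before the start of transcription, a pair of GAAA runs spaced by 2 bases was found on either strand in 6 of the 7 called genes that had a RefSeq entry, in 5 of 15 tested genes that were not called, and in 3.46% of all 27025 symbols. Matches within a promoter may overlap. The lines below give the matched bases, in capitals, with 40 bases or fewer on each side, on the strand of the gene and in assembly GRCm38.p6.
Isg15, chr4:156200835-156200936, minus strand: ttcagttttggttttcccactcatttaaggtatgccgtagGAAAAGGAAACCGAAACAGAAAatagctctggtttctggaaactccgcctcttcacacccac
Ifit1, chr19:34640745-34640853, plus strand: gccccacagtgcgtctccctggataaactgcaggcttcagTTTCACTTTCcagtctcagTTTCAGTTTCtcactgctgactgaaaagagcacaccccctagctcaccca
Ifit3, chr19:34583333-34583456, plus strand: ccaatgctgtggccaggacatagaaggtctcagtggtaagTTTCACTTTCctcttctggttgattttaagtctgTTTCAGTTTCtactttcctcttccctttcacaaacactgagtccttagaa
Gbp3, chr3:142559959-142560043, plus strand: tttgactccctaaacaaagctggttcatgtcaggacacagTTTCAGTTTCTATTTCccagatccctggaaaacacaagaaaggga
The Isg15 window holds 3 overlapping matches and the other windows 2 each, read on the opposite strand in Ifit1, Ifit3 and Gbp3. A match describes the sequence only and was not tested as a site.

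A few chemokine and cytokine genes were higher in K-LM. Of 10 tested CXC and CX3C chemokines, 0 were called higher in T-LM, and the median was -1.47 against -0.02 over all tested genes. Called higher in K-LM were 3 (Cxcl10, Cxcl2 and Cxcl3), against 1.54% of all tested genes. The count was 0 without K-LM replicate 2, 5 or 6, 1 without T-LM replicate 3 or 5 and 6 without T-LM replicate 1. That last sample had a list mean of -1.97, above all K-LM samples (-2.97 to -2.31), whereas the other T-LM samples were at -4.41 to -3.74. Cxcl2, a neutrophil attractant, was at -5.12 to -3.90 (median -4.17) in T-LM and at -2.78, -3.24, -2.42 and -2.51 in K-LM. The groups did not overlap, and the difference was -1.6 ± 0.26 (adjusted p = 0.00495).

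Cxcl3 lay very close within K-LM, at -0.76, -0.61, -0.73 and -0.62, against -2.75 to -1.57 in T-LM, and differed by -1.51 ± 0.24 (adjusted p = 0.00412). Cxcl10, an interferon-inducible attractant of T cells that was above background in 3 of 6 T-LM samples, differed by -1.95 ± 0.32 (adjusted p = 0.00531). Cxcl1 also did not overlap, with a difference of -1.57 ± 0.30, but its adjusted p rounded to 0.01 and lay just over the threshold. With K-LM replicates 2 and 5 averaged, 0 of the 3 were called by limma (adjusted p = 0.0184 for Cxcl10, 0.0177 for Cxcl2 and 0.0145 for Cxcl3). The sites of Cxcl2 and Cxcl3 that match GGG and TTCC spaced by 3 bases, a form of the element bound by NF-kappaB, are shown because both genes hold a pair of such runs in the same order.
Cxcl2, chr5:90903762-90903870, plus strand: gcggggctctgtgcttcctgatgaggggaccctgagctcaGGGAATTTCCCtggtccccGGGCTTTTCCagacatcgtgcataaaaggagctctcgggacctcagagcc
Cxcl3, chr5:90785988-90786100, plus strand: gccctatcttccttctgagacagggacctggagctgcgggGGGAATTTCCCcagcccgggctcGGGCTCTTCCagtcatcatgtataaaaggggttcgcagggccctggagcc
Capitals mark the matched bases on either strand, with 3 matches in each window because the first run matches on both strands. The pattern was held by all 3 called chemokines, by 1 of 5 that were not called (Cxcl1), and by 5.31% of all symbols.

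All 9 tested CC chemokines had differences on the K-LM side, with a median of -1.34, but only Ccl25, an attractant of thymocytes and gut lymphocytes, was called (-0.84 ± 0.16, adjusted p = 0.00951). Ccl2, a monocyte attractant, overlapped, with T-LM replicate 1 at 3.16 and the other T-LM samples at 0.63 to 1.68, against 2.80 to 3.84 in K-LM (adjusted p = 0.0247). Without that replicate Ccl2 differed by -2.17 (adjusted p = 0.00118). Csf2, which encodes the myeloid growth factor GM-CSF, was above background in 1 of 6 T-LM samples and in all K-LM samples. It was at -7.12 to -5.93 (median -6.71) in T-LM and at -4.49, -4.83, -4.12 and -4.13 in K-LM, a difference of -2.23 ± 0.25 (adjusted p = 0.00109). Il18, a cytokine that induces interferon gamma, differed by -1.46 ± 0.24 (adjusted p = 0.00503), and the other 9 cytokines tested were not called.

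The complement gene Cfb, which encodes factor B of the alternative pathway, was at -5.77 to -4.45 (median -4.75) in T-LM and at -2.38, -2.49, -2.45 and -2.94 in K-LM. The groups were over 1 log2 unit apart, with a difference of -2.29 ± 0.25 (4.90-fold, adjusted p = 0.000864). The other 12 complement genes tested were not called. Serum amyloid A genes, which encode acute phase proteins, were less even. Saa3 was at -0.03 to 1.75 (median 0.43) in T-LM and at 3.04, 1.92, 3.71 and 2.08 in K-LM, and its difference of -2.11 ± 0.40 was called (adjusted p = 0.00973).

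Saa1 overlapped, with T-LM replicate 1 at -0.35 and K-LM at 0.91, -0.40, 1.6 and -0.28, and its difference of -1.97 ± 0.44 was not called (adjusted p = 0.0188). Without T-LM replicate 1 the adjusted p of Saa1 was 0.00485. Saa2 was above background in 0 of 6 T-LM and in 2 of 4 K-LM samples, at -4.80 and -5.11 in K-LM replicates 2 and 5 and at -7.23 and -6.63 in replicates 3 and 6, with an adjusted p of 0.0665. For all 3 genes K-LM replicates 2 and 5 were the higher pair. The study drew signatures from the K-LM and T-LM lines, partly on these samples, so they are not independent evidence. Of its K-LM signature 1 of 14 tested genes (Cfb) was called, and of its T-LM signature 1 of 19 (Crabp2). The share over all tested genes was 3.11%. The K-LM signature had 7 genes on each side, with a median of -0.12. Of the T-LM signature 14 of the 19 were on the K-LM side, with a median of -0.66.

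Id1 and Id3, inhibitors of differentiation induced by BMP signalling, were higher in K-LM. Id1 was at -2.19 to -1.42 (median -1.78) in T-LM and at -0.10, -0.38, -0.11 and -0.54 in K-LM, without overlap and with a difference of -1.49 ± 0.17 (adjusted p = 0.00109). Id3 differed by -1.16 ± 0.21 (adjusted p = 0.00833). Of 21 tested TGF-beta and BMP genes these 2 were called, against 1.54% of all tested genes, with a median of -0.44. Krt20, a keratin of gut and urothelium, differed by -1.64 ± 0.22 (adjusted p = 0.0023) and was the 1 called of 8 tested keratins.

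Several genes of cholesterol and fatty acid synthesis were higher in T-LM. Cells make cholesterol from acetyl-CoA through the mevalonate pathway, and SREBP factors raise these genes when sterols are low. Of 23 tested genes of cholesterol synthesis and efflux, 8 were called higher in T-LM, against 1.57% of all tested genes. In K-LM 0 were called higher, and the median difference was 0.50 against -0.02 over all tested genes. The called genes included Insig1, Fdps, Fdft1, Cyp51, Msmo1, Sqle and Mvd, whereas Srebf2, which encodes an SREBP factor (-0.74, adjusted p = 0.54), was not called. With K-LM replicates 2 and 5 averaged, 2 of the 8 were called, Fdps among them. The count was 2, 4, 2 and 3 without K-LM replicate 2, 3, 5 or 6, 4, 4 and 3 without T-LM replicate 3, 4 or 5, and 6 to 10 without any other sample. It was 1 (Fdps) with the balance of long mRNAs as a covariate, and 0 by limma with slide and array position as blocks. The pattern TCACNCCAC (N is any base), searched as an SREBP element in the same 250 bases, was in 0 of 4 called genes with a RefSeq entry. It was held by 1 of 12 tested genes that were not called (Hmgcs1) and by 1.22% of all symbols.

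Fdps, farnesyl diphosphate synthase, was steady within both routes. Its T-LM levels were 1.73 to 2.03 (median 1.93) and its K-LM levels 0.56, 0.69, 0.35 and 0.66. The groups were over 1 log2 unit apart, with a difference of 1.33 ± 0.13 (2.51-fold, adjusted p = 0.000459).

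Insig1, which holds SREBP back in the endoplasmic reticulum, was at background in all K-LM samples and at least 3.14-fold higher in T-LM (adjusted p = 0.00386). Cyp51, lanosterol demethylase, was at -4.77 to -4.11 (median -4.65) in T-LM and at -5.75, -5.70, -5.88 and -5.54 in K-LM. The groups did not overlap, and the difference was 1.13 ± 0.16 (2.19-fold, adjusted p = 0.00251).

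Scd2, a stearoyl-CoA desaturase, had the largest difference among the lipid genes. It was at 0.93 to 1.76 (median 1.45) in T-LM and at -0.58, -1.26, -0.59 and -0.95 in K-LM. Every T-LM sample was higher, and the difference was 2.27 ± 0.20 (4.83-fold, adjusted p = 0.000459). Acaca, the acetyl-CoA carboxylase that commits carbon to fatty acids, differed by 1.46 ± 0.20 (adjusted p = 0.00251). Over fatty acid synthesis, a list drawn up after its values were seen, 3 of 9 tested genes were called higher in T-LM. They were Scd2, Acaca and Acly, against 1.57% of all tested genes. All 9 had differences on the T-LM side, from 0.46 to 2.27.

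Other genes led the T-LM side. Slc7a3, a transporter of the cationic amino acids arginine and lysine, had the largest difference of the named genes on this side, at -3.10 to -2.09 (median -2.84) in T-LM and at -6.55, -5.92, -6.45 and -4.99 in K-LM. The groups did not overlap, and the difference was 3.26 ± 0.30 (adjusted p = 0.000459), measured against K-LM signals of which 2 of 4 were above background. Defb41, a beta-defensin gene, was at -4.14 to -3.11 (median -3.30) in T-LM and at -6.47, -6.70, -6.67 and -5.52 in K-LM, where 1 of 4 samples was above background, and differed by 2.92 ± 0.27 (adjusted p = 0.000459).

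Genes usually silent outside the germline were among them. Pramel13, of the PRAME-like family, was at -3.49 to -2.77 (median -3.16) in T-LM and at -6.69, -6.17, -4.98 and -4.93 in K-LM, where 2 of 4 samples were above background, a difference of 2.54 ± 0.34 (adjusted p = 0.0023). It was the 1 called of 10 tested Pramel genes, whose median was -0.71. Ctag2l1 and Ctag2l2, relatives of human cancer/testis antigen 2, differed by 2.44 ± 0.44 (adjusted p = 0.00748) and 2.62 ± 0.49 (adjusted p = 0.00913). K-LM replicate 6 was the lowest for both, at -5.86 and -6.55 against -4.49 to -3.34 and -4.33 to -3.72 in the other K-LM samples. Probes of such close relatives can read both genes.

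Single matrix and retinoid genes were higher in T-LM too. Cspg4, the NG2 proteoglycan of pericytes and many tumours, was at background in all K-LM samples and at least 2.99-fold higher in T-LM (adjusted p = 0.00147). Tgfbi, a secreted adhesion protein, was above background in 4 of 6 T-LM and 0 of 4 K-LM samples and at least 1.97-fold higher in T-LM (adjusted p = 0.000474). Lamc1, a laminin chain of basement membranes, differed by 1.26 ± 0.21 (adjusted p = 0.006) and Itgb4, a laminin-binding integrin chain, by 1.15 ± 0.18 (adjusted p = 0.00398). Of 18 tested basement membrane genes and 12 tested integrins these were the 1 gene called in each list.

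Crabp2, which carries retinoic acid to its nuclear receptors, was at -0.88 to 0.17 (median -0.49) in T-LM and at -1.66, -2.70, -2.24 and -2.68 in K-LM. All T-LM samples were higher, with a difference of 1.92 ± 0.27 (3.79-fold, adjusted p = 0.0028). Rxra, a nuclear receptor partner of the retinoic acid receptors, differed by 1.22 ± 0.17 (adjusted p = 0.00281). These 2 were called of 13 tested retinoid genes, against 1.57% of all tested genes. Aldh1a1, which makes retinoic acid, went the other way but was not called (-2.34 ± 0.65, adjusted p = 0.0412), with T-LM replicate 1 at -3.74 and the other T-LM samples at -7.39 to -6.66, against -4.82 to -3.35 in K-LM. Without that replicate it differed by -2.91 (adjusted p = 0.000317). Echdc2, a mitochondrial gene of the enoyl-CoA hydratase family, differed by 2.25 ± 0.30 (adjusted p = 0.00249).

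The long mRNAs are those from which the balance described above was computed, so their values are the same measurement gene by gene. Of 18 tested, the median was 0.98, and 0 were called higher in K-LM. Called higher in T-LM were 4, against 1.57% of all tested genes. The count was 1 without K-LM replicate 2, 3 or 5, 2 without T-LM replicate 4 or 5 and 7 without T-LM replicate 1. Dync1h1, the heavy chain of cytoplasmic dynein, was at -0.84 to 0.26 (median -0.06) in T-LM, with replicate 1 the lowest, and at -1.74, -2.26, -1.83 and -1.42 in K-LM. It did not overlap and differed by 1.69 ± 0.23 (adjusted p = 0.0023).

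The ubiquitin ligase genes Ubr4 and Huwe1 differed by 1.54 ± 0.23 and 1.22 ± 0.19 (adjusted p = 0.00372 and 0.00422), and Lrba by 0.87 ± 0.17 (adjusted p = 0.00966). The spliceosome genes Prpf8 (1.57 ± 0.18, adjusted p = 0.00109) and Snrnp200 (1.57 ± 0.18, adjusted p = 0.00128), Tep1, of telomerase and vault particles (1.6 ± 0.18, adjusted p = 0.000982), and Myh9, a non-muscle myosin (0.90 ± 0.14, adjusted p = 0.00453), lay on the same side. With the balance as a covariate, 49 probes were called, and of those 56 called genes 14 were called. They included Lce1g, Lce1i, Crct1, S100a8, Vnn3, Csf2, Fdps, Scd2, Slc7a3 and Defb41 but 0 of the called CXC chemokines. The long mRNAs cannot be read in that fit, since the covariate is made from them.

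Several lists tied to the biology of renal carcinoma held no call. limma called 0 of 28 hypoxia and glycolysis genes (median 0.26), 0 of 29 cell cycle genes (median 0.16), 0 of 11 interstitial collagens (median 0.68), 0 of 16 genes of mesenchymal transition (median 0.14), 0 of 20 stress response genes (median 0.17) and 0 of 20 glutathione and NRF2 genes (median 0.20). Among all 10956 symbols 3.11% were called, so 0 calls in lists of 11 to 29 genes do not set these lists apart. Counting probes, 5330 had an unadjusted p under 0.05 in limma. Of the collagens, Col1a1 was at 3.26 in T-LM replicate 1, at -1.73 to -0.65 in the other T-LM samples and at -3.22 to -1.56 in K-LM. Vhl, the tumour suppressor lost in most human clear cell renal carcinomas, had T-LM levels of -1.66 to -0.79 (median -1.17) and K-LM levels of -1.43, -1.32, -1.27 and -1.10. The groups overlapped, with a difference of 0.07 ± 0.19 (adjusted p = 0.837).

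Hif1a differed by 0.39 ± 0.28 (adjusted p = 0.387). Epas1, which encodes HIF-2 alpha, did not overlap but differed by only 0.36 ± 0.12 (adjusted p = 0.0808). The differences of Postn (0.14 ± 0.94), Tnfsf13b (-0.01 ± 0.27), Ppef1 (-0.58 ± 0.29), Cd44 (-0.11 ± 0.21) and Nt5e (-0.53 ± 0.20) had adjusted p-values of 0.939, 0.986, 0.223, 0.764 and 0.099. Samsn1 was not above background on any of the 10 arrays.

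**Figure D3:**
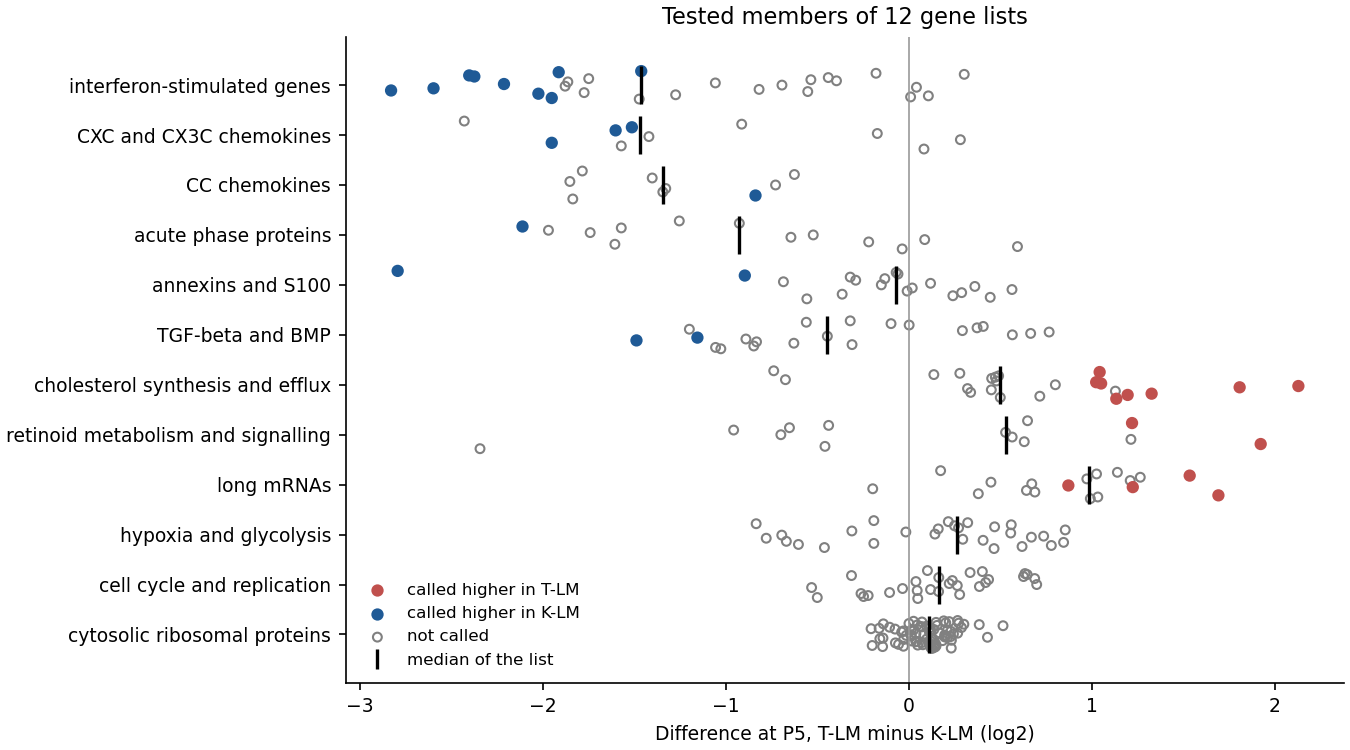
Difference at P5, T-LM minus K-LM (log2), of each tested member of 12 gene lists, with 1 point per gene. Red and blue points are genes called higher in T-LM or K-LM, open points were not called, and bars are medians, which run from -1.47 for the CXC and CX3C chemokines to 0.98 for the long mRNAs.

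The passage before gave a separate set of samples of the same routes, 4 T-LM and 3 K-LM lines of P4. Of the 498 probes called at P5, 222 had the same sign at P4. Among all probes tested in both passages, the share with the same sign was 38.7%. Of the 498, 7 were also called at P4 in the same direction, and 128 probes (0.608% of those tested) were called at P4 at all. For the 498, the median P4 difference in the direction of P5 was -0.07, against 1.18 at P5. The P5 lines descend from earlier passages of their own route, so the 2 passages are separate samples but not separate lineages.

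The following genes of the cornified envelope, interferon and germline groups had the same sign in both passages, with sizes that varied. At P4 the differences were -2.82 for Lce1g, -2.49 for Lce1i, -2.44 for Crct1, -3.07 for Ifit1, -2.93 for Ifit3 and -1.88 for Usp18, and 2.36 for Ctag2l2 and 2.35 for Ctag2l1. None of these 8 was called at P4 (limma, adjusted p = 0.0153 to 0.0773). Other genes of these groups were farther from a call at P4 (limma, adjusted p = 0.202 to 0.944). They were Isg15 (-1.02), Rsad2 (-1.16), Rtp4 (-0.82), Cxcl10 (-1.06), Ifi27l2b (-0.59), Sprr1b (-0.19) and Pramel13 (0.09). The K-LM samples of Lce1g spread from -8.7 to -3.27 at P4. Vnn3 (-3.63, adjusted p = 0.000705) and Il1f6 (-3.79, adjusted p = 0.00931) were called at P4.

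Lce1g moved from -7.88 ± 0.07 (SD, n = 2) in the unpassaged P0 cells to K-LM means of -5.05 at P3, -5.84 at P4, -2.60 at P5 and -1.37 at P6, while the T-LM means stayed between -8.66 and -6.35. Crabp2 rose over the T-LM passages in its means, from -2.65 at P3 to -1.80, -0.40 and 0.54 at P6, and its K-LM means lay between -3.20 and -2.32. Rxra, the other called retinoid gene, had its mean higher in K-LM at both neighbouring passages, at -5.98 in T-LM and -4.67 in K-LM at P4 and at -5.81 and -4.12 at P6. The CXC and CX3C chemokine list, too, had a higher sample mean in T-LM at P4 (-2.15 against -2.88 in K-LM) and P6 (-2.12 against -4.74). The sample mean of the interferon list was -3.55 ± 0.26 (SD, n = 6) in T-LM and -2.29 ± 0.39 (SD, n = 4) in K-LM at P5, with K-LM means of -2.14 at P4 and -2.11 at P6 and T-LM means of -3.15 and -3.19. The K-LM P6 arrays were all on a later slide set read with another software version, so passage and slide cannot be told apart there.

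**Figure D4:**
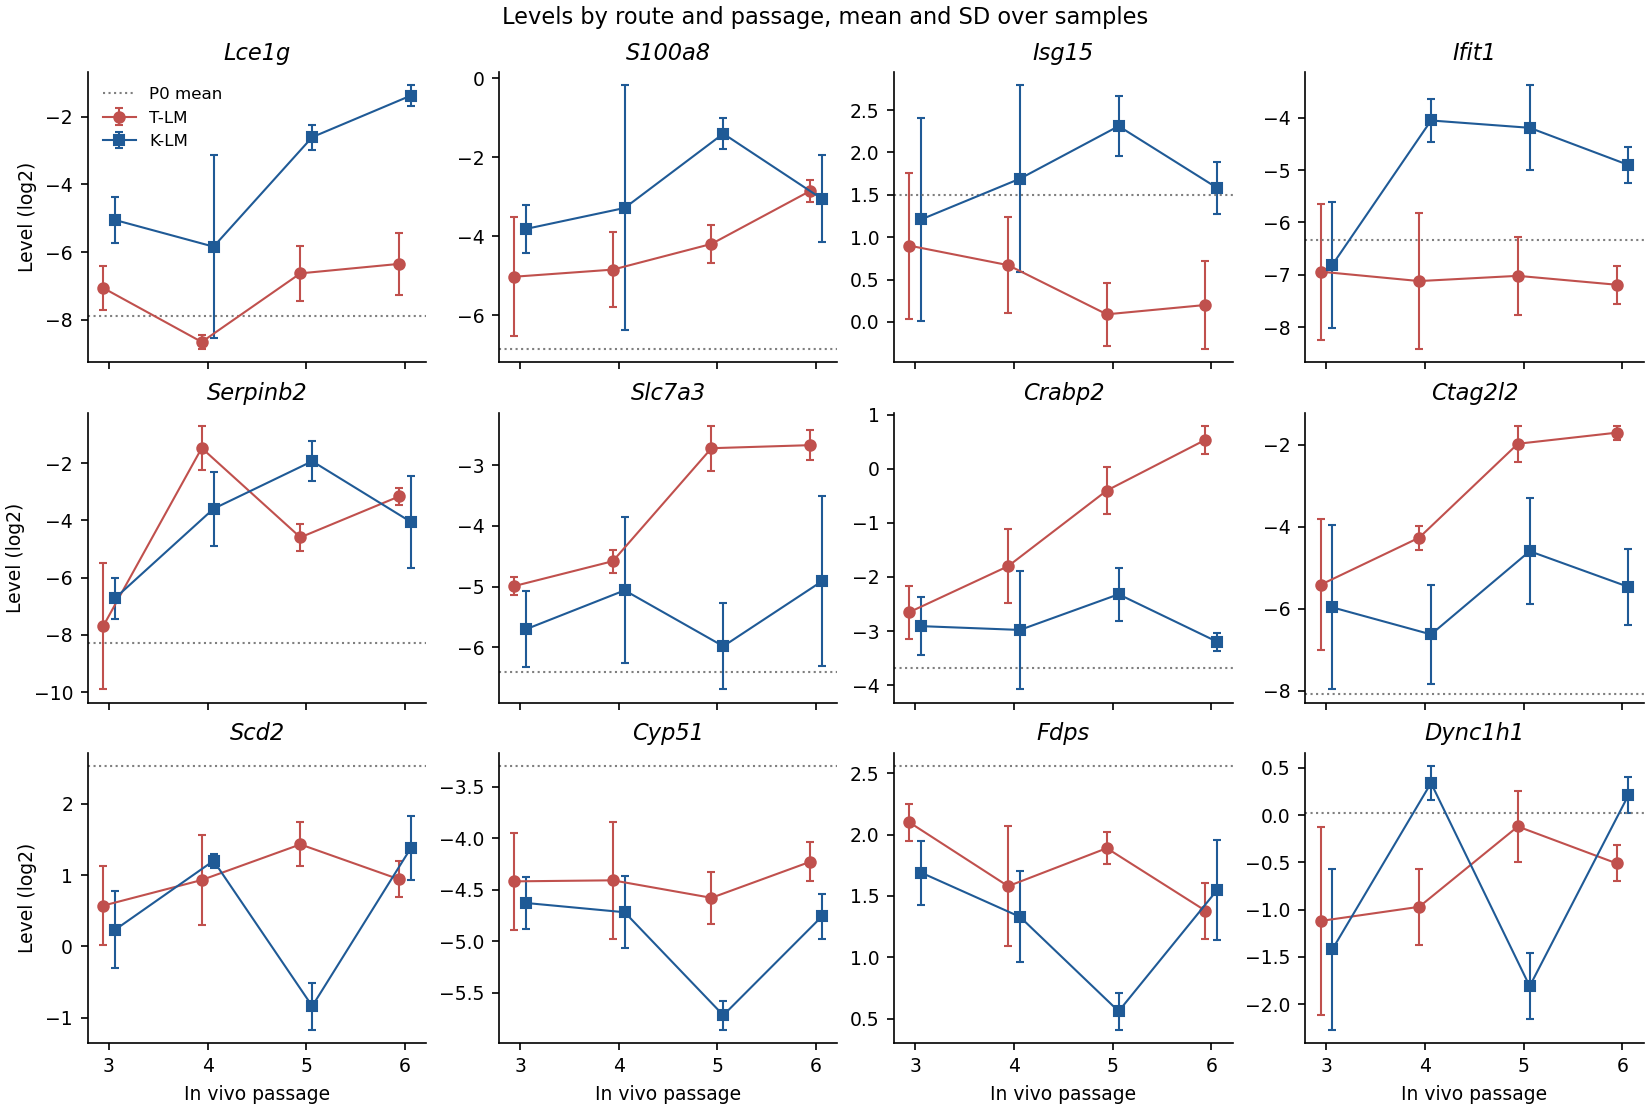
Mean level (log2) of 12 genes in T-LM (red circles) and K-LM (blue squares) at in vivo passages 3 to 6, with SD over 3 to 6 samples as bars and the P0 mean as a dotted line. Lce1g and Ifit1 are higher in K-LM at P4, P5 and P6, Slc7a3 and Crabp2 separate most at P5 and P6, and Scd2, Cyp51, Fdps and Dync1h1 have their lowest K-LM mean at P5.

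The lipid genes behaved differently. Scd2 had K-LM means of 0.23 at P3, 1.20 at P4, -0.84 at P5 and 1.38 at P6, and Cyp51 of -4.63, -4.72, -5.72 and -4.76. The T-LM means of Scd2 stayed within 0.57 to 1.43. Over the 23 cholesterol genes the sample mean of K-LM P5 was -3.37 ± 0.05 (SD, n = 4), whereas it ranged from -2.95 to -2.20 in the means of P0, both routes at P3, P4 and P6, T-LM P5 and the P5 kidney tumour lines.

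The change of the route difference from P4 to P5 was tested as an interaction in limma over the 17 arrays of both passages, and 343 of 21053 probes (1.63%) were called, 194 towards T-LM and 149 towards K-LM. Leaving out 1 of the 17 samples gave 89 (without K-LM P5 replicate 5) to 603 (without T-LM P5 replicate 1). Serpinb2 turned over, from 2.12 ± 0.55 at P4 to -2.66 at P5 (change -4.78 ± 0.72, adjusted p = 0.00281). Il18 moved towards K-LM as well (change -2.08 ± 0.43, adjusted p = 0.00974). Towards T-LM moved Cspg4 (change 3.76 ± 0.51, adjusted p = 0.00136), Scd2 (2.54 ± 0.38, adjusted p = 0.00281) and Acaca (1.90 ± 0.31, adjusted p = 0.00389).

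Dync1h1 went from -1.31 at P4 to 1.69 at P5 (change 3.00 ± 0.35, adjusted p = 0.000642), and 5 of 18 long mRNAs had a called change towards T-LM. The balance computed from them turned over between the passages, since at P4 it was -7.00 ± 0.32 (SD, n = 4) in T-LM and -6.34 ± 0.22 (SD, n = 3) in K-LM. With it as a covariate limma called 0 changes, with 4542 probes at an unadjusted p under 0.05. Its part in the changes was not tested beyond that.

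**Figure D5:**
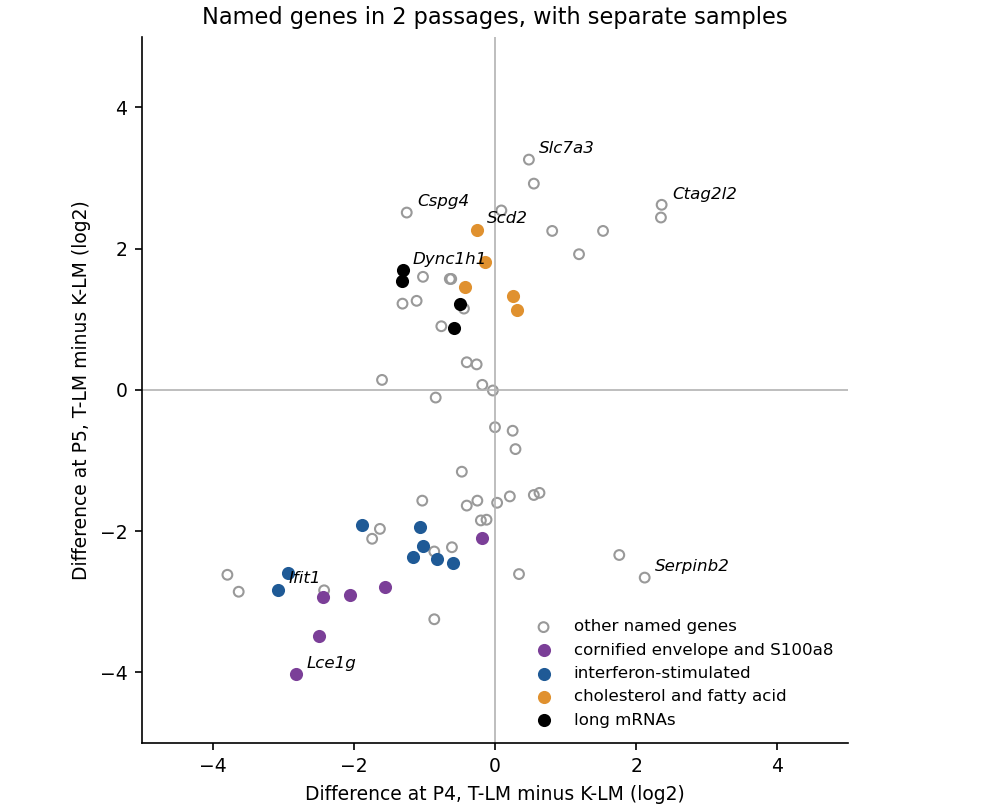
Difference between routes (T-LM minus K-LM, log2) at P4 on the horizontal axis and at P5 on the vertical axis, 1 point per named gene. Cornified envelope genes and interferon-stimulated genes lie in the lower left, where both passages were higher in K-LM, and the 4 long mRNAs in the upper left, where the sign turned between passages.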

How the data were processed

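Total RNA of the 10 cultured lines was labelled with Cy5 and hybridised, 1 sample per array, to Agilent mouse arrays. The authors deposited scanner intensity values per spot from Agilent Feature Extraction (version 11.0.1.1 for 62 arrays of the series and 12.0.2.2 for 8), with background-corrected processed signals and flags, and a table of log2 values that, by comparison with the scanner files, the authors had made by quantile normalization of the median signals. Per the labels, RNA was amplified with the low-input kit. The genome build of the array design was not given in the sources used here.

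Of 62976 spots, 3671 controls and spots with outlier flags were left out, spots were averaged to 55681 probes, and 28026 probes were matched to 21154 symbols through RefSeq. Each array's 75th percentile of log2 processed signal, over probes well above background on all 10 arrays, was subtracted. Probes well above background on at least 2 arrays were tested with limma 3.58.1 in R 4.3.3 (lmFit and eBayes, Benjamini-Hochberg adjusted p of 0.01 or less over all probes), without covariates, and a symbol was represented by its brightest probe. Where a probe was at background in a whole group, a fold is a bound against the lowest signal well above background. The number of arrays limits the precision. Data were simulated for this comparison with 18592 probes, with every array drawn independently, so the close pairs of the real samples were not modelled. In these data, 0% of the probes changed by 0.5 log2 units were recovered. The share was 20% for probes changed by 1 log2 unit, 88% for those changed by 2 and 98% for those changed by 3.

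The members and gene lists were chosen with earlier results of these data known. Named were the 14 largest called differences in each direction that did not overlap and were above background throughout the higher group, up to 4 genes per list by adjusted p, and genes the study discusses. Of the genes that met the rule, those with full values in the text were picked after their values were seen, as were Sprr1b, Ifnb1, Acaca, the other list members named and the fatty acid, Prl, Xlr, Pramel, Ctag2l and cornified envelope families. Promoters came from RefSeq (GRCm38.p6). Alternatives covered scaling, background, deposited values, filters, slide, array position, replicate number, left-out samples, the balance of long mRNAs and averaged alike samples, of which array position and averaging were chosen after seeing the data. Some items are not reported here.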

Additional observations from a re-analysis of the deposited data

Results flagged for a closer look

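In 144 groups of 4 to 6 samples checked for a sample far from the others, 8 held one, and chance flags about 1 in 20. T-LM replicate 1 was that sample for 5 genes. Its levels were -2.33 for Postn, against -7.97 to -6.40 in the other T-LM samples, and -3.74 for Aldh1a1, against -7.39 to -6.66. It was also high for Saa3 (1.75, others -0.03 to 0.63) and Cyp51 (-4.11, others -4.77 to -4.57), and low for Dync1h1 (-0.84, others -0.13 to 0.26). T-LM replicate 2 was low for Tgfbi (-6.16, others -5.44 to -5.10) and Nt5e (-5.19, others -4.72 to -4.50). In K-LM, replicate 6 was high for Acaca (-1.84, others -2.15 to -2.10).

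The difference between routes changed from P4 to P5 beyond the test's threshold for 14 of the named genes (limma interaction, adjusted p of 0.01 or less). Serpinb2 (-4.78) and Il18 (-2.08) moved towards K-LM. Towards T-LM moved the lipid genes Scd2 (2.54) and Acaca (1.9), Cspg4 (3.76), Rxra (2.53), Lamc1 (2.37) and Tep1 (2.62), the splicing genes Prpf8 (2.19) and Snrnp200 (2.21), Myh9 (1.66) and the long mRNAs Dync1h1 (3), Ubr4 (2.86) and Lrba (1.45). The balance of long and ribosomal protein mRNAs, which reversed between the passages, stood beside all of these changes (the 3 long mRNAs are part of it), and 0 of them were called with it as a covariate.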

How the results depend on the processing

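The count of 498 calls at P5 stayed within 1.5 times (398 to 723) under 11 alternatives, among them other scaling (470), normexp (539), the deposited values (512) and slide as a random block (398). The called probes themselves changed, and under these alternatives 226 (slide as a fixed block) to 433 of the 498 were called. Of the 56 called named genes, 33 were called with slide as a fixed block. With slide and position blocks 2 were called, Slc7a3 and Pramel13. They moved to 140 without a filter on dim probes, 315 with a floor, 2104 at an adjusted p of 0.05, 49 with the balance of long mRNAs as a covariate, 118 with K-LM 2 and 5 averaged, 0 with 4 pairs averaged (2326 probes at an unadjusted p under 0.05), 8 with slide and position blocks, and 0 for the K-LM array at the T-LM position alone (1154 at an unadjusted p under 0.05). Leaving out 1 sample gave 110 to 1200. The cause of these moves was not tested. The share of distance between routes was 22.7% without the filter (exact permutation p = 0.0762) and 23.9% to 38.4% with 1 sample left out. The balance differed by 0.57 to 0.94 with 1 sample left out. The 343 changes from P4 to P5 became 78 without the filter, 727 with all first-set arrays, 716 with slide as a fixed block, 534 with slide as a random block, 1902 at 0.05, 0 with the balance as a covariate, and 89 to 603 with 1 sample left out. Probes near background limit what dim genes can show.

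With the replicate number as a block over 2, 3, 5 and 6, 723 probes were called, against 623 for the same 8 arrays without it. Same-numbered samples correlated at 0.311, -0.00625, 0.0381 and 0.481 for 2, 3, 5 and 6, and 2 of the 4 numbers matched best with their own, so the numbers were not taken to pair the samples.

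Under the floor the called genes Tgfbi, Ifi27l2b and Ifnb1 gave a difference of 0, with both groups at the floor. Of genes that were not called, Tnfsf13b turned to 0.03 (scaling on all probes), 0.01 (slide as a fixed or random block), 0.1 (replicate block), 0.44 (position blocks) and 0.18 (same position), with -0.1 to 0.17 over left-out samples. Postn turned to -0.87 (replicate block), -2.15 (position blocks) and -0.44 (same position), with -0.67 to 0.46 over left-out samples. Vhl turned to -0.02 (deposited values) and -0.18 (balance), with -0.02 to 0.16 over left-out samples. Cd44 gave 0 (balance) and 0.11 (same position), with -0.21 to 0.03 over left-out samples, Hif1a gave -0.07 (balance), and with position blocks Ppef1 gave 0.1 and Nt5e 0.01.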

Other observations

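Families outside the fixed lists were read after their values were seen. Of 6 tested prolactin-family genes, which are mostly known from the placenta, 4 were called higher in K-LM, against 1.54% of all tested genes. The differences were -1.69 for Prl2c5 and -1.59 for Prl2c1, both above background in every sample. They were -1.95 for Prl8a9 and -1.19 for Prl3d1, which were above background in 0 T-LM and 2 K-LM samples. Those 2 genes entered the test only through K-LM, and the size of their differences rests on background signal. Of 4 tested Xlr genes, an X-linked multi-copy family, Xlr4b (2.43) and Xlr4a (2.35) were called higher in T-LM, against 1.57% of all tested genes. Xlr4b was above background in 1 K-LM sample and Xlr4a in 0, so these sizes have the same limit. Probes of such families can read several copies.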
